A study of Saccharomyces cerevisiae with 6 samples.

Results

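Rec8, the kleisin subunit of meiotic cohesin, was mapped in budding yeast by chromatin endogenous cleavage with sequencing, and the bins described here are those on chromosome arms that lie between a gene's start and its midpoint, called the 5′ side of the gene here, with the rest called the 3′ side. In this assay the protein carries micrococcal nuclease, calcium starts cleavage of the DNA beside it, and the released fragments are sequenced. There were 6 diploid cultures, 3 WT (Rec8-3xFLAG-MNase ndt80-delta) and 3 ctf19-9A (Rec8-3xFLAG-MNase ctf19-9A ndt80-delta), each from a separate zygote. All 6 carried the nuclease tag on Rec8 and lacked NDT80, whose product takes cells out of meiotic prophase I, the stage the labels give. They grew about 16 h in YP acetate and 4.5 h in 1% potassium acetate before 5 min with 2 mM calcium chloride. The background is labelled X and Y, letters that are not explained, and the tissue is labelled zygotes. The authors' deposited table holds 14224 bins of 20 bp that passed a comparison of the genotypes at a false discovery rate under 0.05, and no value for a single culture, so depth, replicate spread and the level of Rec8 in either genotype are unknown.

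Bins were taken from the 13 chromosomes other than I, III and VI. The middle of a bin had to lie in exactly 1 annotated gene of build R64 and on the 5′ side of that gene. It also had to lie more than 500 bp from a tRNA gene, 20 kb from a chromosome end and 50 kb from the centromere. A stretch of chromosome XV in which all 118 listed arm bins were negative was left out. This gave 362 of the 14224 bins, in 109 genes. The listed bins as a whole were 9.18% of the 154927 bins that the last p-value and false discovery rate imply were adjusted together, and those with a positive value 5.58%, and nothing is read from these shares, because the bins described are listed ones. Which bins were tested is not known, and a bin that is not listed may have been untested or may not have passed.

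Cohesin is a ring that holds sister chromatids together, and Rec8 takes the place of the mitotic kleisin in meiosis. Ctf19 belongs to the inner kinetochore, where phosphorylation of its N-terminus brings in the cohesin loader, and ctf19-9A is known as an allele without those phosphorylation sites. Cohesin loaded in yeast is thought to be moved along chromosomes in the direction of transcription, and it is found mostly at the 3′ ends of genes and above all between convergent genes. The beginning of a gene is therefore a place where cohesin is usually sparse, and these bins are the listed positions on the arms that lie there.

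All 362 bins had a positive log2 fold change and 0 had a negative one. The sign was shared by every class of listed arm bins compared here, with 0 negative among the 2462 on 3′ sides and the 1821, 1585 and 503 in convergent, tandem and divergent intergenic sequence, while 8648 of all 14224 listed bins were positive. Each of these arm classes leaves out the stretch of XV, where all 118 listed arm bins were negative. The counts of 0 thus depend in part on the selection. With that stretch kept there were 370 bins on 5′ sides, 8 of them negative, and no such count is given for the other classes. The file headers do not say which genotype is the numerator, and the mutant over its control is taken as likely from the design. Under that reading the Rec8 cleavage signal was higher in ctf19-9A at each of these bins, and with the sign turned it was lower. How the libraries were scaled is not stated, so a change relative to the rest of the library cannot be told apart from an absolute one. The median log2 fold change was 0.52 in the authors' deposited table, a ratio of 1.43, with quartiles of 0.47 and 0.57 and a range of 0.37 to 0.81. The standard error (SE) implied by the p-values had a median of 0.17. These were moderate changes, with 49 bins above 0.6, 5 above 0.7 and 0 above 1. At a false discovery rate under 0.01, 35 bins (9.67%) were left.

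The size of a listed value was tied to its error. Across the 362 bins the log2 fold change and its SE had a Pearson's r of 0.78 and a Spearman's rho of 0.74, a description over bins that share the same 6 libraries, with neighbours that are correlated. A bin with a larger SE had to have a larger value to be listed. The values of listed bins are thus bounded from below, and an order of genes by log2 fold change is partly an order by SE.

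Along the gene, listed bins were sparse through the 5′ side and became frequent toward the 3′ end. In the first decile of gene length 64 bins were listed, 0.190% of the 20 bp windows there, in the second decile 56 (0.165%) and in the fifth 93 (0.267%). The last decile held 1246 (3.64%). The rate thus stayed low over the 5′ side, and its steep part lay beyond the midpoint. In all, 0.210% of the 172143 arm windows on 5′ sides were listed, against 1.42% of the 173822 on 3′ sides, a ratio of 6.74. Averaged over the 13 chromosomes these rates were 0.217% (SD 0.10) and 1.48% (SD 0.47). Convergent intergenic sequence on the same arms, the usual place of cohesin, had 11.4% of its windows listed. Of the 2824 listed bins in arm genes, 12.8% lay on the 5′ side (exact 95% binomial interval 11.6 to 14.1, for counting error alone and with bins treated as independent), where 49.8% of the gene windows lay. Here and below, windows are counted whether or not they were tested. Each side alone has more windows than the 154927 bins implied to have been adjusted together, so many windows were not among those. Where the missing windows lay is not known, and their part in the ratio was not tested.

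**Figure D1:**
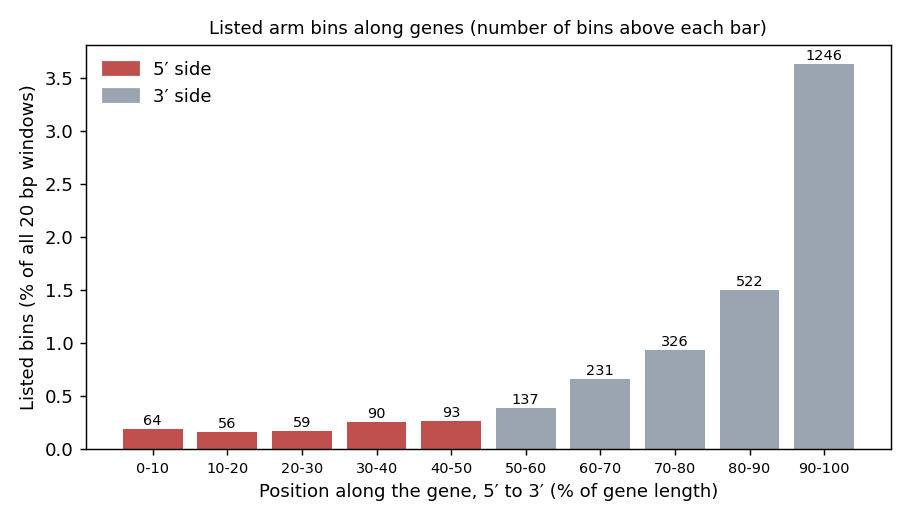
Share of 20 bp arm windows that are listed, in percent, for each decile of gene length from the 5′ to the 3′ end, with red bars for the 5′ side, grey bars for the 3′ side and the number of listed bins above each bar. The rate is 0.190% in the first decile and 3.64% in the last, with windows counted whether or not they were tested.

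The medians of listed bins showed no gap like the one in frequency, though only bins that passed the threshold enter them. Listed bins on 3′ sides had a median log2 fold change of 0.53 and a median SE of 0.17, next to 0.52 and 0.17 on 5′ sides. The medians of single chromosomes had a mean of 0.524 (SD 0.011, n = 13) on 3′ sides and 0.516 (SD 0.028, n = 13) on 5′ sides, so the difference was smaller than the spread between chromosomes. Listed bins in tandem and divergent intergenic sequence had higher medians, 0.60 and 0.64, with higher median SEs, 0.19 and 0.20. A false discovery rate under 0.01 was reached by 9.67% of listed bins on 5′ sides and 11.9% on 3′ sides. The threshold enters every one of these values, so like medians do not show that changes over all windows were alike. No test of the differences was made, because values of single cultures are needed for one.

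Short genes held most of the 5′-side bins. Genes under 500 bp had 77 bins, 1.49% of their 5′-side windows, and genes of 500 to 1000 bp had 0.673% of theirs. The rate then went down with each longer class, to 0.262% at 1000 to 1500 bp, 0.0999% at 1500 to 2000 bp, 0.0384% at 2000 to 3000 bp and 2 bins (0.00478%) above that. In 3′ sides no such decline was seen, with 1.34% in the shortest and 1.51% in the longest class. In genes under 500 bp both sides of the midpoint were therefore listed at a like rate, 1.49% and 1.34%, whereas above 3000 bp the 5′ side was nearly empty. The genes holding a bin had a median length of 897 bp, against 1215 bp for all 4725 arm genes with a 5′-side window, and 57.8% of them were under 1000 bp, against 39.5%. With genes under 1000 bp left out, 5.84% of listed gene bins lay on the 5′ side in place of 12.8%.

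**Figure D2:**
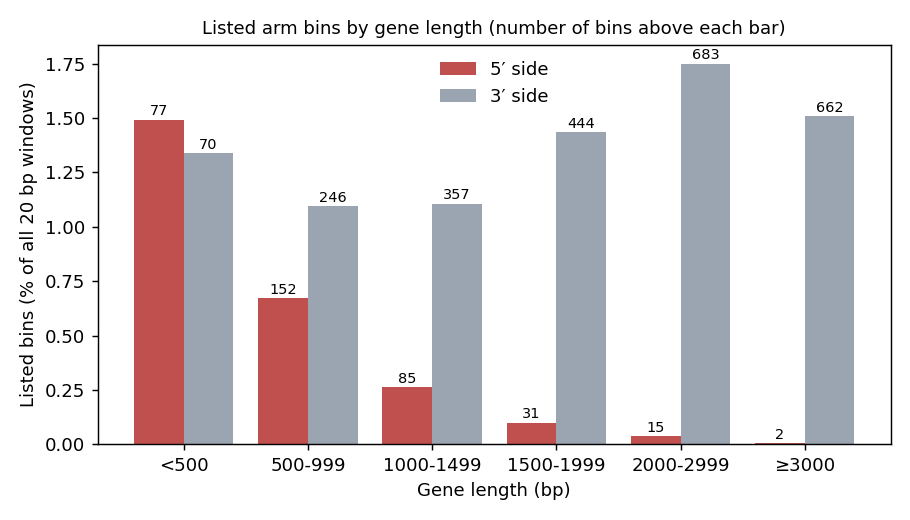
Share of 20 bp arm windows that are listed, in percent, by gene length class, for 5′ sides (red) and 3′ sides (grey), with the number of listed bins above each bar. Both sides are alike in the shortest class, 1.49% and 1.34%, and the 5′ side has only 2 bins in the longest.

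The 5′ side of a short gene is also close to a 3′ end, its own or that of a neighbour. The median distance from a 5′-side bin to the nearest 3′ end of any gene was 472.5 bp, against 1002.5 bp for all arm windows on 5′ sides. That end belonged to the gene itself for 226 bins (62.4%, against 51.0% of windows), to the upstream neighbour for 131 (36.2%, against 46.8%) and to another gene for 5. Of 5′-side windows within 250 bp of a 3′ end 1.22% were listed, at 250 to 500 bp 0.731%, at 500 to 1000 bp 0.220% and at 1000 to 2000 bp 0.0405%. Beyond 2000 bp there was 1 bin among 22183 windows. In the same distance classes, windows on 3′ sides were listed at 2.54%, 1.34%, 0.926% and 0.257%, and beyond 2000 bp at 0 of 5054. Which of these windows had been tested is not known, and the part that distance has in the difference between the sides was not tested.

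Measured from the gene start, 90 bins lay within 100 bp, 200 within 250 bp and 325 (89.8%) within 500 bp. The median distance was 216 bp, against 423.5 bp for all 5′-side windows. The bins lay in shorter genes, with a median gene length of 864 bp over bins and 1902 bp over windows. A 5′ side ends nearer to the start in a shorter gene, so the distance in bp depends on gene length. As a fraction of gene length, the median position was 0.30 for the bins and 0.25 for the windows, so by that measure the bins were not nearer to the start. The gene table's protein-coding lengths are multiples of 3 in 96.4% of cases, so starts are those of the coding sequence and untranslated regions are not part of the genes. The largest distance from a start was 1965.5 bp, in VMR1.

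Most of these bins lay in genes that follow a tandem neighbour and face a convergent one. An upstream neighbour reading in the same direction, which turns its 3′ end toward the gene start, was present for 283 of 362 bins (78.2%), against 49.4% of 5′-side windows. The share was above that of the windows on 11 of 13 chromosomes. The exceptions were II, with 27 bins (37.0% against 50.3%), and IV, with 69 (49.3% against 49.8%), the most of any chromosome. A downstream neighbour reading toward the gene was present for 295 bins (81.5%), against 51.5% of windows, above the windows' share on 12 of 13 chromosomes, with IX, which had 8 bins, as the exception. Counted by gene, 87 of 109 (79.8%) had a tandem upstream and 89 (81.7%) a convergent downstream neighbour. No bin lay in a gene whose start is overlapped by another gene (0 of 2711 windows, in 63 genes). Over all 5′-side windows the rate was only 0.210%, and bins cluster within genes, so nothing is read from this 0.

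Both directions together separated the genes further. Where the upstream neighbour was tandem and the downstream one convergent, 223 bins were listed, 0.524% of windows, and they made up 61.6% of the bins on 24.7% of the windows. With a divergent upstream and a tandem downstream neighbour, so that no 3′ end faces the gene on either side, 6 bins in 2 genes were listed among 38793 windows, or 0.0155%. Divergent with convergent had 0.160% and tandem with tandem 0.126%. The other 8 bins lay in 4 genes whose 3′ end is overlapped by another gene (APQ13, YGL088W, YMR075C-A and YNL184C), and they were 0.685% of the 1168 windows of such genes, a higher rate on few windows. Tandem with convergent was above divergent with tandem in genes under 1000 bp (2.28% and 0.0773%) and in longer ones (0.221% and 0.00309%, the latter 1 bin). Median log2 fold changes of the 4 arrangements were 0.50, 0.53, 0.54 and 0.56, so that the arrangement with the most bins had the lowest median, along with the lowest median SE, 0.16.

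**Figure D3:**
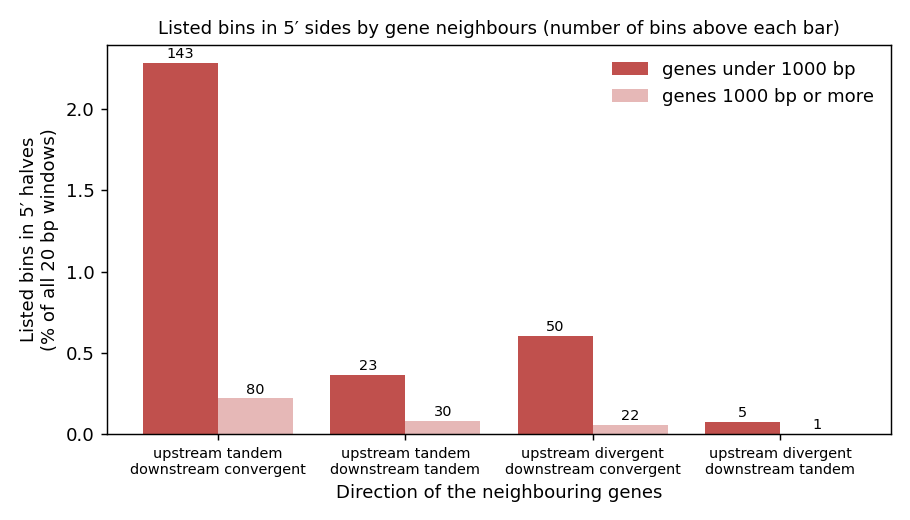
Share of 20 bp arm windows on 5′ sides that are listed, in percent, by the direction of the upstream and downstream neighbouring genes, for genes under 1000 bp (dark) and of 1000 bp or more (light), with the number of bins above each bar. Of the arrangements shown, short genes between a tandem upstream and a convergent downstream neighbour stand highest, at 2.28%.

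Listed bins in a 5′ side seldom stood alone in the neighbourhood of the gene. Of the 109 genes, 65 (59.6%) also held a listed bin on the 3′ side, 75 (68.8%) in the intergenic stretch upstream and 67 (61.5%) in the one downstream, and 35 had all of these. Among the 4616 other arm genes the shares were 7.56%, 11.3% and 19%. Bins near each other share fragments and signal, so the co-occurrence is no independent evidence. In 10 genes none of these places held a listed bin: CTP1, MSS2, MTQ2, FCY21, REV7, APQ13, AAT1, GAS2, YMR141C and RRT8, with 18 bins among them. APQ13 had 2 further listed bins where it overlaps NET1.

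Touching bins formed 139 runs, with a median of 3 bins, of which 48 were single bins. Most runs, 100 with 240 of the 362 bins, lay wholly inside the 5′ side. A further 19 runs with 54 bins crossed the gene start from the intergenic side, 18 with 55 bins went over the midpoint into the 3′ side, and 2, in CNL1 and OTO1, did both. The longest run had 31 bins over 620 bp, in RRF1. Bins were concentrated in few genes, since 25 genes with at least 5 bins each held 200 (55.2%), whereas 41 genes had 1.

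AIM23 and RRF1 were among the genes with the most bins. AIM23, for the mitochondrial translation initiation factor IF3, lies on the reverse strand of X (164278 to 165348) and held 14, from 17.5 to 517.5 bp after its start, with log2 fold changes of 0.42 to 0.50 in the authors' deposited table. RRF1, for the mitochondrial ribosome recycling factor, lies on the forward strand of VIII (184066 to 184758) and held 13. Its values ran from 0.39 to 0.62 in the authors' deposited table, and 1 of its bins had the smallest false discovery rate of all 362 (184321 to 184340; 0.61, adjusted p 0.00117, SE 0.14). A further 17 bins followed on its 3′ side and 13 lay upstream of it. Both genes follow a tandem gene, URA2 and PUT2, and run toward a convergent one.

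YHC3 and FAR1 showed bins well inside the gene or near its start and none on the 3′ side. YHC3, for a vacuolar membrane protein related to human CLN3, lies on X (324964 to 326190) and had 13 bins from 166.5 to 466.5 bp after its start, with 0.49 to 0.69 in the authors' deposited table. FAR1, for the inhibitor that arrests the cell cycle in response to mating pheromone, lies on X (123836 to 126328). Its 11 bins, at 97.5 to 317.5 bp of a gene of 2493 bp, had 0.41 to 0.53 according to the authors' deposited table, and 12 listed bins lay upstream between FAR1 and SSY5. FAR1 was the gene with the most bins among those over 2000 bp and has tandem neighbours on both sides.

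MET32 and BTT1 are convergent neighbours on IV, and each had bins near its start. MET32, for a zinc-finger activator of sulfur metabolism genes, lies on the reverse strand (963990 to 964565) and held 10 bins, 0.47 to 0.58 in the authors' deposited table, with the smallest adjusted p at 14.5 bp from the start (964541 to 964560; 0.58, adjusted p 0.00199, SE 0.14). They belonged to a run of 27 bins that reached into the divergent stretch toward CHL4, and 1 stood apart. BTT1, for a beta subunit of the nascent-polypeptide-associated complex, lies on the forward strand (963412 to 963861) with 9 bins of 0.45 to 0.60, per the authors' deposited table. The run at its start went on upstream toward PAM1 and reached 0.96 there in the authors' deposited table.

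CNL1, FAD1 and YEF1 had 9 bins each. SEC65 also had 9, and it was left out of the genes chosen by number of bins because ties were broken by the smaller p-value. CNL1, for a subunit of the BLOC-1 complex of endosomes, is a gene of 369 bp on IV (1189199 to 1189567), and its run of 28 bins covered the gene start and the midpoint, with 0.46 to 0.57 inside the 5′ side in the authors' deposited table. FAD1, for FAD synthetase, on IV (372688 to 373608) had 6 bins in a run of 120 bp that ended at the midpoint, 1 single bin and 2 at the edge of a run across the start, from 0.44 to 0.58 per the authors' deposited table. YEF1, for an ATP-NADH kinase, on V (75944 to 77431) had 1 run of 180 bp that began 426.5 bp after the start, with a top value of 0.67 (adjusted p 0.00728, SE 0.18) in the authors' deposited table, and 0 bins on its 3′ side.

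**Figure D4:**
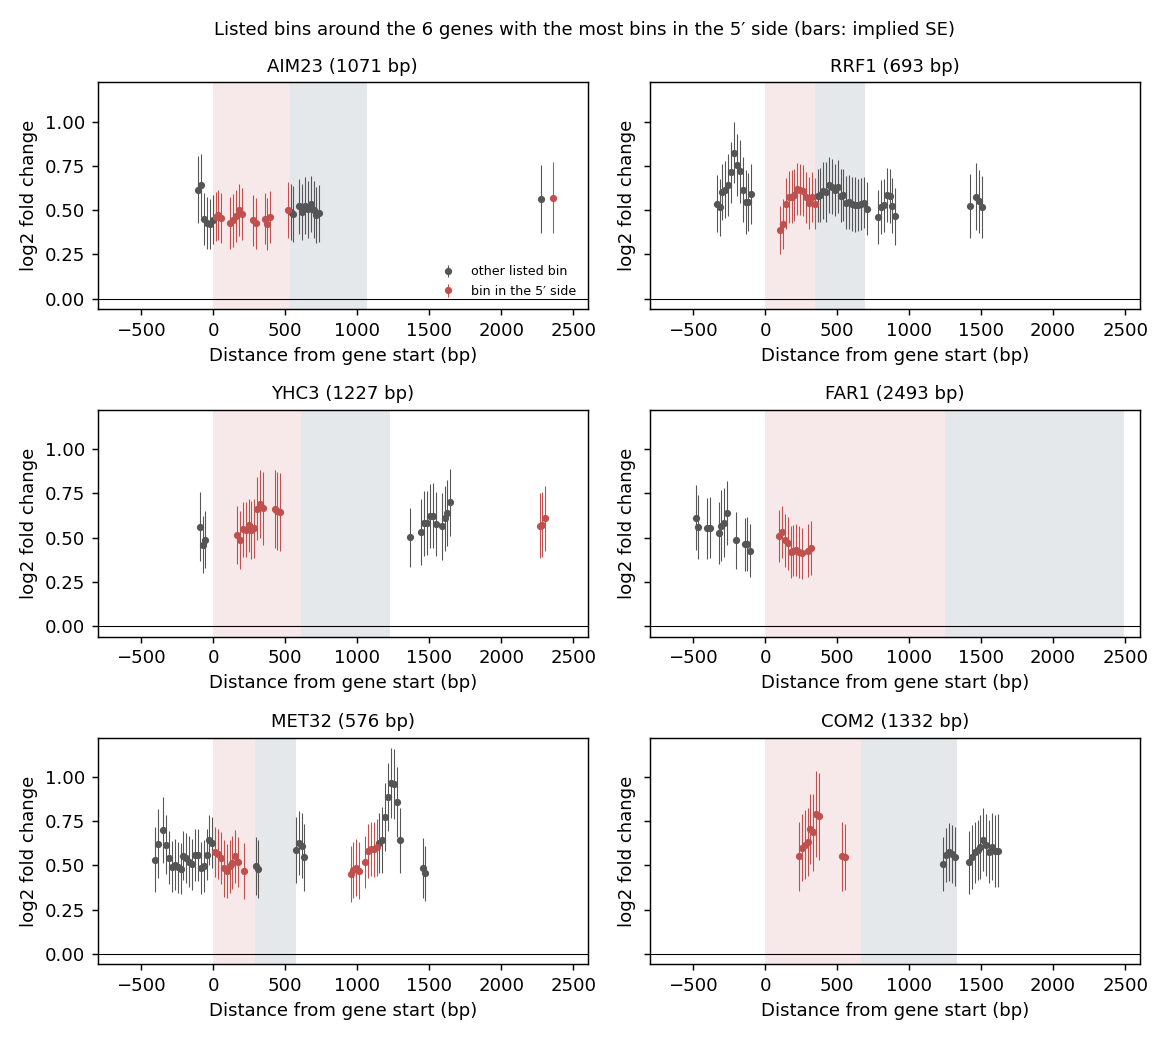
Log2 fold change of every listed bin around the start of AIM23, RRF1, YHC3, FAR1, MET32 and COM2, with the implied SE as bars, pink shading for the 5′ side of the gene and grey for the 3′ side. Red points are arm bins on the 5′ side of the gene shown or of a neighbour, and all values shown are positive. Red points inside the gene run from 0.41 to 0.53 in FAR1, from 0.42 to 0.50 in AIM23 and up to 0.79 in COM2.

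The highest single values were in NAT4, COM2 and ECM33, each with a large SE. NAT4 encodes the N-terminal acetyltransferase of histones H2A and H4 on XIII (407709 to 408566), and the bin over its start had 0.81 (407701 to 407720; adjusted p 0.00743, SE 0.22) in the authors' deposited table. That bin was part of a run of 6 that lay mostly in the 124 bp between AVO2 and NAT4 and reached 0.96 there. COM2, for a transcription factor on V (421115 to 422446), had 10 bins from 235.5 to 555.5 bp after its start and a top value of 0.79 (422081 to 422100; adjusted p 0.0209, SE 0.24) in the authors' deposited table. ECM33, for a GPI-anchored cell wall protein on II (393123 to 394742), had 4 bins and up to 0.70 (adjusted p 0.0180, SE 0.21) in the authors' deposited table, with no listed bin on its 3′ side or upstream of it.

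Other high values were spread over genes of different length. YLR162W on XII had 0.70, SPC98, for a component of the gamma-tubulin complex, 0.69, and VPS52, for a subunit of the GARP tethering complex, 0.68 in the authors' deposited table. CTP1, for the mitochondrial citrate carrier, had 0.68 and YGL088W 0.68 in that table. Each was 1 to 7 bins. YLR162W lies 104 bp from a 5S rRNA gene, RDN5-6, in a stretch of repeated sequence, and how reads with several map positions were treated is not stated in the labels or headers.

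Among the genes with the smallest adjusted p-values, PRM3 and OTO1 were very short. PRM3, needed for nuclear fusion in mating, is 402 bp long on XVI (182655 to 183056) and had 6 bins, the best with 0.58 (adjusted p 0.00357, SE 0.15) in the authors' deposited table. OTO1 is 174 bp long on VII (949052 to 949225), had 4 bins and a best value of 0.59 (adjusted p 0.00536, SE 0.15) there. In both, 3′-side bins were listed as well, 8 and 4.

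The bins nearest to a gene start lay 1.5 to 4.5 bp after it. Besides NAT4 they were found in HSK3 (0.42), for a subunit of the DASH complex of the outer kinetochore, YMR075C-A (0.59), next to the cohesin gene PDS5, FCY21 (0.56), for a purine-cytosine permease homologue, and CHP1 (0.43), all values from the authors' deposited table. A 20 bp bin with its middle there holds sequence on both sides of the start. FCY21 has close relatives in the genome, among them its neighbour FCY22, so reads there may be shared.

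Long genes contributed few bins. VMR1, for a vacuolar ABC transporter, is the longest at 4779 bp and had 1 bin (0.58), near the middle, with 22 bins on its 3′ side. DSE4, for a daughter-cell glucanase of 3354 bp, had 1 bin (0.52) at 28.5 bp, beside 5 upstream. SPC98 and YJL132W, 2541 and 2253 bp long, had 1 bin each, in the authors' deposited table, so that of the 5 longest genes only FAR1 held more than 1.

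Over 14 lists of gene classes with 297 genes on these arms, 5 genes (1.68%) held a 5′-side bin, against 2.31% of all arm genes. This is near the background, and nothing is read from the 10 lists that held none. The lists without a bin were cohesin, its loader and condensin (0 of 8), the inner kinetochore (0 of 13), meiotic recombination and axis genes (0 of 17), histones (0 of 4), acetate, glyoxylate and TCA cycle genes (0 of 18), hexose transporters (0 of 15), amino acid permeases (0 of 15), membrane pumps (0 of 14), chaperones (0 of 14) and aminoacyl-tRNA synthetases (0 of 14). RPB5, for a subunit shared by RNA polymerases I, II and III, was the 1 of 9 polymerase genes, with 8 bins of up to 0.55 (adjusted p 0.0299, SE 0.18). Of 123 ribosomal protein genes, RPS16B had 4 bins of up to 0.59 and RPL17A 1 of 0.57. PYK2, the minor pyruvate kinase, had 2 bins of up to 0.59, and VMR1 was the 1 of 14 ABC transporters. Values are those of the authors' deposited table, and RPS16B and RPL17A each have a near-identical second copy in the genome.

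All but 1 of the 362 bins lay in protein-coding genes. The share of all 5′-side windows in such genes is not given here, so nothing is read from this count. The exception was in SCR1, the RNA of the signal recognition particle, on V (441987 to 442508), with 0.52 (adjusted p 0.0379, SE 0.17) in the authors' deposited table and 8 further bins on its 3′ side. Of the 109 genes, 11 carried only a systematic name.

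The chromosomes differed in how many of their 5′-side windows were listed. Chromosome IV had 69 bins and X had 50, together 32.9% of all, whereas IX had 8. Per 100 kb of 5′-side sequence on the arms, X had 21.8 bins and V 20.7, against a mean of 10.9 (SD 5.2, n = 13) and a lowest value of 5.67 on XV. The bins on X came from 7 genes and those on V from 6, so these rates rest on few genes. Chromosomes VIII and IX had fewer genes, 5 and 4, and lower rates, 12.9 and 7.13. Of listed gene bins on X, 29.6% lay on 5′ sides, against 6.02% on IX. Across the 13 chromosomes the rate and chromosome length had a Pearson's r of -0.19 and a Spearman's rho of -0.23, a description over few points that rest on the same 6 libraries. Medians of the log2 fold change lay between 0.47 on XIV and 0.55 on IX.

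**Figure D5:**
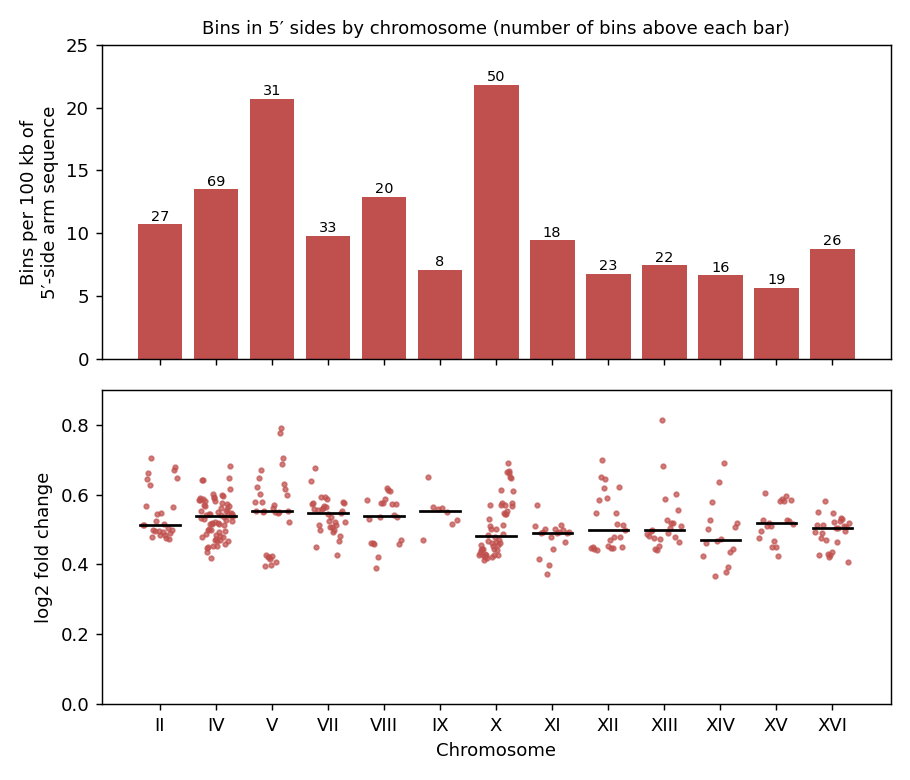
Top, 5′-side bins per 100 kb of 5′-side arm sequence on each of the 13 chromosomes, with the number of bins above each bar. Bottom, log2 fold change of every bin (points) and the chromosome's median (black line); X and V have the highest rates, 21.8 and 20.7, while medians stay between 0.47 and 0.55.

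The bins named here at the limits of the selection were not all close to them. Their log2 fold changes were 0.46 to 0.52 inside and 0.47 to 0.63 outside. The last bin inside the 5′ side was in EFG1, at 49.9% of its length (0.50), and the first outside was in YBR032W, at 50% (0.59), in the authors' deposited table. The bin closest to the centromere limit was in VMA16 at 55.3 kb (0.46), and the nearest one left out was in BET4 at 49.1 kb (0.47), again from that table. At the chromosome ends the limits fell between DSE4 at 24.5 kb (0.52) and YOL166W-A at 0.61 kb (0.47), and the bin nearest to a tRNA gene was in HYM1 at 979.5 bp (0.51), while the nearest one left out was inside the tRNA gene YNCO0029C (0.63), per the authors' deposited table.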

How the data were processed

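The only values were those of the authors' comparison of 3 WT with 3 ctf19-9A cultures. DESeq2 (no version), deepTools 3.4.3, Bowtie2 2.5.0 and FastQC 0.11.9 are listed with builds R64 and sacCer3, per the submitters' processing notes, without settings or read filters. Per the file headers, the deposited values are a p-value, a false discovery rate, a log2 fold change and a shrunken log2 fold change for each 20 bp bin, and the p-value and log2 values are the authors' own.

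The SE was computed as the log2 fold change divided by the normal deviate of the two-sided p-value. Bins were joined to genes by coordinates on R64, the assembly of the RefSeq gene table. Strand was read from the systematic name (W or C). Chromosome ends were taken as the last gene or listed bin, and centromeres as fixed positions. All 20 bp windows that met the same rule served as the denominator, whether or not they had been tested. Neighbours were the nearest annotated genes of any kind. Exact 95% binomial intervals were computed for the share of gene bins on 5′ sides and for the tandem and convergent shares. Only the first is printed, and the others served to compare settings. No test across samples was possible. Scripts (Python 3.11.15, pandas 2.3.3, scipy 1.17.1) were tested on simulated data.

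The bins, gene lists and comparisons were chosen with earlier results of these data known. Genes named were the 10 with the most bins, the 10 with the highest value, the 5 with the smallest false discovery rate, the 5 with a bin nearest the start, the 5 longest, list members and those at the limits of the selection. Genes without a bin elsewhere and SCR1 were named after their values were seen. Sequence was not used here, so a planned search for promoter motifs was not run.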

Additional observations from a re-analysis of the deposited data

How the results depend on the processing

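Of 57 alternative values, 47 stayed within 1.5 times the count, the interval of the share or 1 SD of the chromosome medians, and no value changed sign. The 10 that moved follow. The number of bins was 202 with the first 33.3% of the gene in place of the first 50%. At a false discovery rate under 0.01 it was 35, with a median log2 fold change of 0.58, 10.6% of gene bins on the 5′ side and 85.7% with a convergent downstream neighbour. The authors' shrunken log2 fold change had a median of 0.40. With 1 bin per merged region the 5′ share was 15.3%. In genes of at least 1000 bp it was 5.84%, and there 82.7% of bins had a tandem upstream and 76.7% a convergent downstream neighbour. The convergent share and the length limit for both neighbour shares were added after seeing the data. Beyond the loss of bins that these limits bring, the cause was not tested. With the stretch of XV kept, there were 370 bins, 8 of them negative. Without each chromosome in turn, the median ran from 0.51 to 0.52 and the 5′ share from 11.8% to 13.5%. No paired analysis was possible because the deposited table holds no value for a single culture. Depth could not be examined for the same reason.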

Other observations

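A further 20 listed arm bins lay where 2 annotated genes overlap and so fell outside the rule. All were positive, with a range of 0.45 to 0.68 and a median of 0.55 in the authors' deposited table. Of these, 17 were in RCO1, for a subunit of a histone deacetylase complex, where YMR075C-A lies on the other strand, 2 were in NET1, a nucleolar protein gene, where APQ13 overlaps it, and 1 was where the transcripts SUT053 and SUT468 overlap. The 17 bins ran from 415681 to 416040 on XIII, with a gap of 1 bin. In 12 of the 20 the bin was on the 5′ side of at least 1 of the genes, and the bins carry no strand.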
